A study of Mus musculus with 32 samples.

Results

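The breakdown of the branched-chain amino acids leucine, isoleucine and valine was followed through 10 genes in mouse brown adipose tissue. They are the aminotransferases Bcat1 and Bcat2, the branched-chain ketoacid dehydrogenase subunits Bckdha, Bckdhb and Dbt, its kinase Bckdk and its phosphatase Ppm1k, and the downstream enzymes Ivd, Pcca and Hibch. Members were chosen by name, and every probe that the array annotation assigns to one of these names was read if it also has a row in the deposited log2 table. The array carries 24 probes of these names, of which 23 have such a row. The same 23 passed the filter on dim spots, out of 37306 probes of 24523 gene names that passed. Each of the 10 genes kept at least 1 probe, and the probe left out was the Bcat1 probe A_51_P376227.

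Branched-chain amino acids are first transaminated to ketoacids, reversibly, by a cytosolic (Bcat1) or a mitochondrial (Bcat2) enzyme. The mitochondrial ketoacid dehydrogenase complex then commits the ketoacids to oxidation. It is switched off when Bckdk phosphorylates its E1 subunit and switched on again when Ppm1k removes the phosphate. Brown fat is a site of active branched-chain amino acid oxidation during thermogenesis. In liver, the kinase and the phosphatase have been linked to ChREBP, the carbohydrate-responsive transcription factor encoded by Mlxipl.

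RNA of interscapular brown adipose tissue was hybridised to 32 one-colour Agilent arrays, with 8 arrays in each of 4 groups. By the study's methods all were C57BL6/J males. The ChREBPtotal_KO mice were Mlxipl-null and so lacked both isoforms of the factor, α and β, in all tissues. By their label, ChREBPtotal_WT were the wild types for that line, and whether they were littermates was not stated. The ChREBPbeta_KO mice lacked exon 1b, from which the β isoform starts, in all tissues after CRISPR/Cas9 deletion in one-cell embryos, and ChREBPbeta_WT were wild types from the same litters as these. Every mouse went without food for 24 hours and was then refed for 18 hours with food and water containing 20% glucose, so no group shows the fed or fasted state without this challenge. The age of the array mice was not given in the sources used here, and the labels do not tie arrays to litters.

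The groups were checked on the targeted gene. The brightest Mlxipl probe, A_55_P2119957, lay between 15.98 and 16.33 in log2 intensity in total WT and between 13.49 and 13.91 in total ChREBP KO. In the β line it lay between 16.15 and 16.55 in WT and between 14.68 and 14.99 in ChREBPβ KO, so neither pair of groups overlapped. All 7 brown adipocyte markers were well above background on every array. In total KO 5 of them were called, 3 higher and 2 lower, from -3.16 for Elovl3 to 2.19 for Dio2, and none was called in ChREBPβ KO, while Ucp1 (-0.09 and -0.01) and Cidea (0.04 and -0.01) were called in neither. The mean over 8 skeletal muscle markers differed between the lines, with 12.46 to 16.18 in total WT and 14.22 to 15.76 in total KO against 5.49 to 11.89 in β WT and 5.49 to 11.3 in β KO. The mean over 7 liver markers spread widely within each group, from 5.67 to 13.34 over the 32 arrays. Macrophage markers moved with the total KO: all 3 (Adgre1, Cd68 and Lyz2) were lower, their mean lying between 10.31 and 11.31 in total WT and between 9.82 and 10.33 in total KO. The part of these other cell types in the results was not tested, and values with and without their markers are given only as other settings. In bulk tissue, fewer cells of a type and less RNA per cell cannot be told apart.

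Values are log2 intensities after quantile normalization, a gene is read by its brightest probe unless another is named, and differences are log2 fold changes of KO over WT from limma with Benjamini-Hochberg adjustment over all 37306 probes. A gene is called when its adjusted p is under 0.05. Intensities of different probes are not compared as levels.

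Loss of both isoforms went with higher signal of most of the pathway. In total ChREBP KO, 8 of the 10 genes were called, 7 higher and 1 lower, against a background of 44.1% of all genes called in this comparison, 22.9% higher and 21.1% lower. The median log2 fold change of the 10 genes was 0.40, and over all genes it was 0.01. The 7 higher genes were Bcat2, Bckdhb, Dbt, Ivd, Hibch, Pcca and Bckdha. Each was above the WT mean on 8 of 8 KO arrays and higher in 4 of 4 wash batches. The calls came from these same arrays, so this describes them and is no further test. A batch held 1 to 3 arrays per group, and the smallest batch difference of the 7 was 0.04, for Bckdha. By probe, 17 of 23 were called higher and 1 lower, against 43.2% of all probes called. In ChREBPβ KO, 1 of the 10 genes, Bcat1, was called, against 2.70% of all genes, 1.37% higher and 1.33% lower. Without adjustment, limma gave a p under 0.05 for 3 of the 10. The share of all genes at this unadjusted threshold was not computed, so nothing is read from that count.

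**Figure D1:**
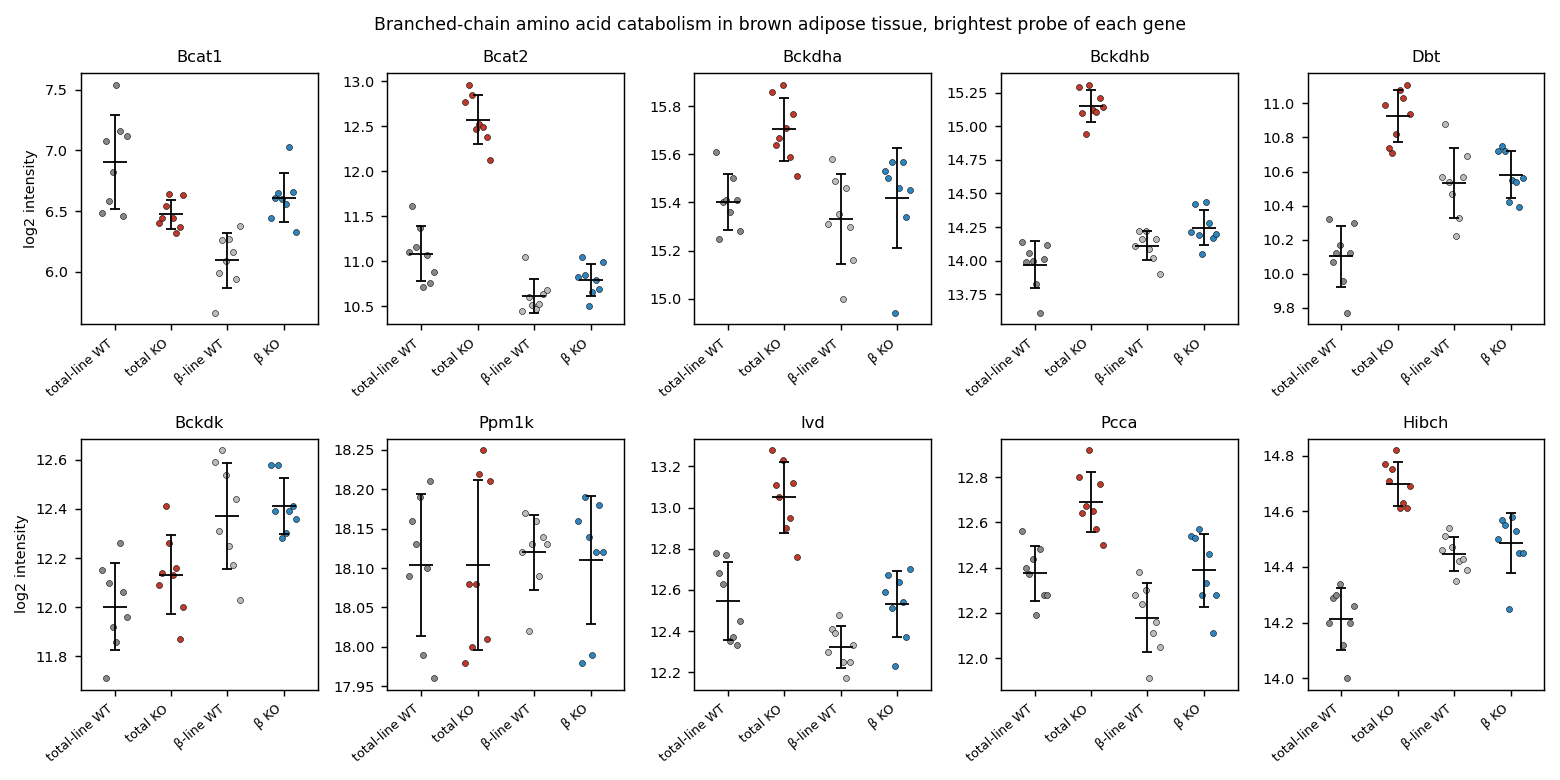
Log2 intensity (vertical axis) of the brightest probe of each of the 10 genes in the 4 groups (horizontal axis). Each point is 1 array, and the bar and whiskers are the mean ± SD of 8 arrays. The total KO points of Bcat2, Bckdhb, Dbt and Hibch lie above all total WT points, and the Ppm1k points lie near 18 in every group.

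Bcat2, the mitochondrial aminotransferase and the main form outside the brain, had the largest change of the 10. Its lowest, median and highest log2 intensities were 10.71, 11.08 and 11.61 in total WT and 12.12, 12.5 and 12.96 in total KO. They were 10.45, 10.56 and 11.04 in β WT and 10.5, 10.8 and 11.04 in β KO. The total KO arrays stood above all others, and the β groups overlapped almost fully. The total KO difference was 1.49 ± 0.12 (SE, 95% interval 1.25 to 1.73, limma adjusted p = 3.88e-12), a 2.80-fold increase. It held within each of the 4 wash batches, at 1.36 to 1.6. In ChREBPβ KO the difference was 0.18, with an interval of -0.06 to 0.42 (limma adjusted p = 0.563). The spot of this probe was well above background on 32 arrays but flagged as found on only 25 of 32. For every other member the brightest probe was found on 32. With fewer than 26 arrays, the Bcat2 probe was kept by the rule of 6 or more arrays of a group.

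The brightest Bcat2 probe, A_55_P1960167, lies at chr7:52844940-52844999 of mm9 and was designed on transcript variant 2. The second probe, A_52_P393781 at chr7:52831204-52831263, was designed on variant 1. The last 30 bases of each are shown because the probes differ in brightness and in the size of the change.
A_55_P1960167: ttctctatctccgttctcaggccggatccc
A_52_P393781: gctgtttgggaagaccttcacagaccacat
The second probe also rose without overlap in total KO, from 6.05, 6.43 and 6.61 to 6.85, 7.13 and 7.38 (lowest, median and highest). Its difference was 0.76 (limma adjusted p = 2.98e-09), smaller than that of the brighter probe. In ChREBPβ KO it was 0.06 (limma adjusted p = 0.857).

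Bcat1, the cytosolic aminotransferase, gave a different answer with each of its probes. By the brightest, A_55_P2907669, the lowest, median and highest values were 6.46, 6.95 and 7.54 in total WT and 6.32, 6.44 and 6.64 in total KO. They were 5.66, 6.12 and 6.38 in β WT and 6.33, 6.6 and 7.03 in β KO. The total WT arrays spread most, and the total KO arrays lay in or below their lower part. The β groups touched only at their edges. This probe was lower in total KO by a log2 fold change of -0.43 ± 0.12 (SE, interval -0.68 to -0.19, limma adjusted p = 0.00422) and higher in ChREBPβ KO by 0.51 ± 0.12 (SE, interval 0.27 to 0.76, limma adjusted p = 0.0147).

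Neither Bcat1 call held in every setting. The total KO difference ranged from -0.87 (batch 2, with 1 KO array) to 0.01 over the 4 wash batches. Without wash batch 2 it was -0.29 (limma adjusted p = 0.0574), and without wash batch 4 it was -0.32 (limma adjusted p = 0.0627). The ChREBPβ KO difference was 0.53 to 0.76 within batches of 1 to 3 arrays per group. Its highest value, in batch 4, rests on 1 KO array, replicate 6. With slide as a block the ChREBPβ KO difference was 0.47 (limma adjusted p = 0.229). Without wash batch 1 it was 0.53 (limma adjusted p = 0.0863), and without wash batch 2 it was 0.45 (limma adjusted p = 0.107).

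The second Bcat1 probe, A_65_P13146, moved the other way in total KO. It was designed on a cDNA clone, and the other probes on the RefSeq transcript variant 2. Its values were 4.75, 5.16 and 5.45 in total WT and 5.36, 5.62 and 5.87 in total KO, with a difference of 0.51 ± 0.09 (SE, limma adjusted p = 2.54e-05). In the β line the same probe gave -0.06 (limma adjusted p = 0.875). The third, A_66_P127969, gave 0.07 in total KO (limma adjusted p = 0.589) and, for the β isoform alone, 0.05 (limma adjusted p = 0.891). A change of Bcat1 as a gene can therefore not be given from this array. All lie on the minus strand of chromosome 6, at chr6:144947709-144947768, chr6:144952736-144952795 and chr6:144942376-144942435 of mm9. Their first bases are at positions 2438, 1232 and 7771 of the transcripts they were designed on. The last 30 bases of each are given since the calls depend on which one is read.
A_55_P2907669: atggaagtgacagatactatacattatgtg
A_65_P13146: tctcagcacacccatatcaatcagttcaca
A_66_P127969: tctgcagattatgtccacctttctgttgcc

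The E1 and E2 subunits of the ketoacid dehydrogenase complex, Bckdhb, Dbt and Bckdha, all rose in total KO but by different amounts. Bckdhb encodes the E1β subunit. Its lowest, median and highest values were 13.61, 14 and 14.14 in total WT and 14.94, 15.13 and 15.31 in total KO, against 13.9, 14.13 and 14.22 in β WT and 14.05, 14.2 and 14.44 in β KO. The total KO arrays did not overlap with any other group. The difference was 1.18 ± 0.07 (SE, interval 1.04 to 1.32, limma adjusted p = 2.36e-15), a 2.27-fold increase, and 1.05 to 1.39 within wash batches. Its second probe, A_51_P102782, gave 1.25 (limma adjusted p = 6.44e-17). In ChREBPβ KO the difference was 0.13, with an interval of -0.01 to 0.27 (limma adjusted p = 0.393).

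Dbt, the E2 acyltransferase core of the complex, has 1 probe on the array, at chr3:116252015-116252074 of mm9. Its values were 9.77, 10.12 and 10.32 in total WT and 10.71, 10.97 and 11.11 in total KO. For the β line they were 10.22, 10.55 and 10.88 in WT and 10.39, 10.55 and 10.75 in KO. The total line separated without overlap, while the β KO arrays lay inside the range of their WT. The total KO difference was 0.83 ± 0.08 (SE, interval 0.65 to 1.00, limma adjusted p = 1.25e-09), a 1.77-fold increase, and the ChREBPβ KO difference was 0.05, with an interval of -0.12 to 0.22 (limma adjusted p = 0.896).

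Bckdha, the E1α subunit that carries the regulatory phosphorylation sites, changed least of these. Its values were 15.25, 15.4 and 15.61 in total WT and 15.51, 15.69 and 15.89 in total KO, and the groups overlapped. The difference was 0.30 ± 0.08 (SE, interval 0.14 to 0.47, limma adjusted p = 0.00301). In the β line the values were 15, 15.33 and 15.58 in WT and 14.94, 15.48 and 15.57 in KO, with a difference of 0.09 (limma adjusted p = 0.728). Taken array by array, Bckdhb minus Bckdha differed by 0.88 between total KO and WT with no overlap and by 0.05 in the β line, as a description of 2 unequal probes with no test.

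Bckdk and Ppm1k set the activity of the complex in opposite directions. Bckdk was not called in either knockout. Its lowest, median and highest values were 11.71, 12.01 and 12.26 in total WT, 11.87, 12.14 and 12.41 in total KO, 12.03, 12.38 and 12.64 in β WT and 12.28, 12.39 and 12.58 in β KO. KO and WT overlapped in both lines. The difference was 0.13 in total KO, with an interval of -0.04 to 0.30 (limma adjusted p = 0.218), and 0.04 in ChREBPβ KO, with an interval of -0.13 to 0.22 (limma adjusted p = 0.907). The intervals allow a change of at most 0.30 upward and 0.13 downward. Of 20 other settings, 1 called the total KO difference, the one without wash batch 4, at 0.22 (limma adjusted p = 0.0356).

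Ppm1k has 3 probes that passed, and they did not give one answer. The brightest, A_55_P1968606, was among the brightest on the whole array, ranking 29 of 37306. Its lowest, median and highest values were 17.96, 18.11 and 18.21 in total WT and 17.98, 18.08 and 18.25 in total KO. They were 18.02, 18.13 and 18.17 in β WT and 17.98, 18.13 and 18.19 in β KO. The groups could not be told apart by eye or by test, with 0.00 in total KO (interval -0.09 to 0.10, limma adjusted p = 0.989) and -0.01 after loss of β alone (limma adjusted p = 0.976). None of its spots was saturated, but how well a change shows so near the top of the intensity range was not tested. In the log2 table the authors deposited, the total KO difference of this probe was 0.08 (limma adjusted p = 0.0453).

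The other Ppm1k probes were higher in total KO. A_51_P265219 had 7.72, 8.05 and 8.19 in total WT and 8.27, 8.55 and 8.97 in total KO, without overlap. It had 7.56, 8.02 and 8.25 in β WT and 7.41, 7.86 and 8.1 in β KO, which overlapped. The total KO difference was 0.61 ± 0.11 (SE, interval 0.40 to 0.83, limma adjusted p = 1.7e-05) and the ChREBPβ KO difference -0.15 (interval -0.37 to 0.06, limma adjusted p = 0.599). The dimmest, A_66_P133398, was well above background on 5 to 7 of 8 arrays per group and gave 0.35 in total KO (limma adjusted p = 0.0131). Bckdk minus Ppm1k, taken array by array, differed by 0.13 between total KO and WT with the brightest Ppm1k probe and by -0.48 with A_51_P265219, so the sign of the kinase to phosphatase difference depends on the probe.

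All Ppm1k probes were designed on the same RefSeq transcript, on the minus strand of chromosome 6 in mm9. They start at its positions 3398 (chr6:57458598-57458657), 5106 (chr6:57456890-57456949) and 25 (chr6:57485336-57485395). The last 30 bases are shown with AATAAA, the usual polyadenylation signal, in capitals, followed by those of the brightest Bckdhb probe at chr9:84017787-84017846, the other of the 23 probes that holds it there.
A_55_P1968606: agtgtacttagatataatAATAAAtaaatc
A_51_P265219: gcaagttgtgtttaacaagatgaagaaacc
A_66_P133398: acagagaagtcagtctagtttatcatccaa
A_55_P2115235: gtattcAATAAAgccaaattacatcgcctc
Among all 37306 probes, 8.97% hold AATAAA in their last 30 bases, counted on the strand of the probe. The match is a description of the letters only.

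**Figure D2:**
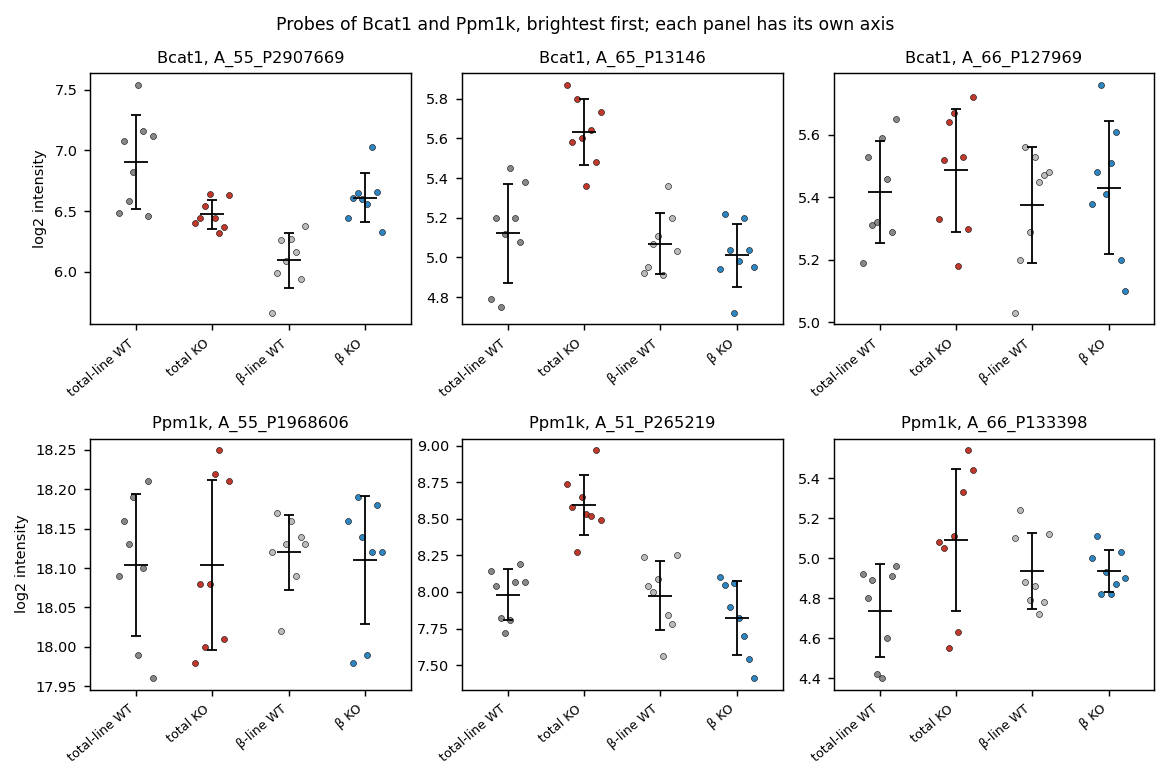
Log2 intensity (vertical axis) of each kept Bcat1 and Ppm1k probe in the 4 groups (horizontal axis), with 1 point per array and the mean ± SD of 8 arrays. The Bcat1 probe A_55_P2907669 is lower and A_65_P13146 higher in total KO, and the Ppm1k probe A_51_P265219 separates the total KO arrays while A_55_P1968606 does not.

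Of the downstream enzymes, Ivd, isovaleryl-CoA dehydrogenase of the leucine branch, rose with all its probes in total KO. Its brightest had 12.33, 12.54 and 12.78 in total WT and 12.76, 13.08 and 13.28 in total KO, which overlapped only at the edge. The difference was 0.50 ± 0.08 (SE, limma adjusted p = 4.49e-06), and the other probes gave 0.71 (limma adjusted p = 8.57e-07) and 0.40 (limma adjusted p = 0.000223). For the β line the probe had 12.17, 12.31 and 12.48 in WT and 12.23, 12.57 and 12.7 in KO, with a difference of 0.21 (interval 0.05 to 0.37, limma adjusted p = 0.189).

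Hibch, the hydrolase of the valine branch, rose from 14, 14.23 and 14.34 in total WT to 14.61, 14.7 and 14.82 in total KO, without overlap. The difference was 0.48 ± 0.05 (SE, interval 0.38 to 0.58, limma adjusted p = 1.9e-09), against 0.04 (interval -0.06 to 0.14, limma adjusted p = 0.833) in ChREBPβ KO, where the values were 14.35, 14.44 and 14.54 in WT and 14.25, 14.52 and 14.58 in KO. Of its other probes, A_55_P2599891 gave 0.35 in total KO (limma adjusted p = 2.15e-05), and A_55_P2714539 gave 0.04 (limma adjusted p = 0.848). A_51_P191274 gave 0.49 (limma adjusted p = 0.0746) with 1 total KO array at 10.17 against a group median of 7.72.

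Pcca, the α subunit of propionyl-CoA carboxylase, which isoleucine and valine breakdown share, had 12.19, 12.39 and 12.56 in total WT and 12.5, 12.66 and 12.92 in total KO. The groups overlapped, and the difference was 0.31 ± 0.07 (SE, limma adjusted p = 0.000636). Its other probes gave 0.25 (limma adjusted p = 0.0119) and 0.49 (limma adjusted p = 1.64e-05). In the β line the values were 11.91, 12.2 and 12.38 in WT and 12.11, 12.39 and 12.57 in KO, with a difference of 0.21 (interval 0.06 to 0.35, limma adjusted p = 0.136). Pccb, which encodes the β subunit, gave 0.11 in total KO (limma adjusted p = 0.198) and 0.20 after loss of β alone (limma adjusted p = 0.126).

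**Figure D3:**
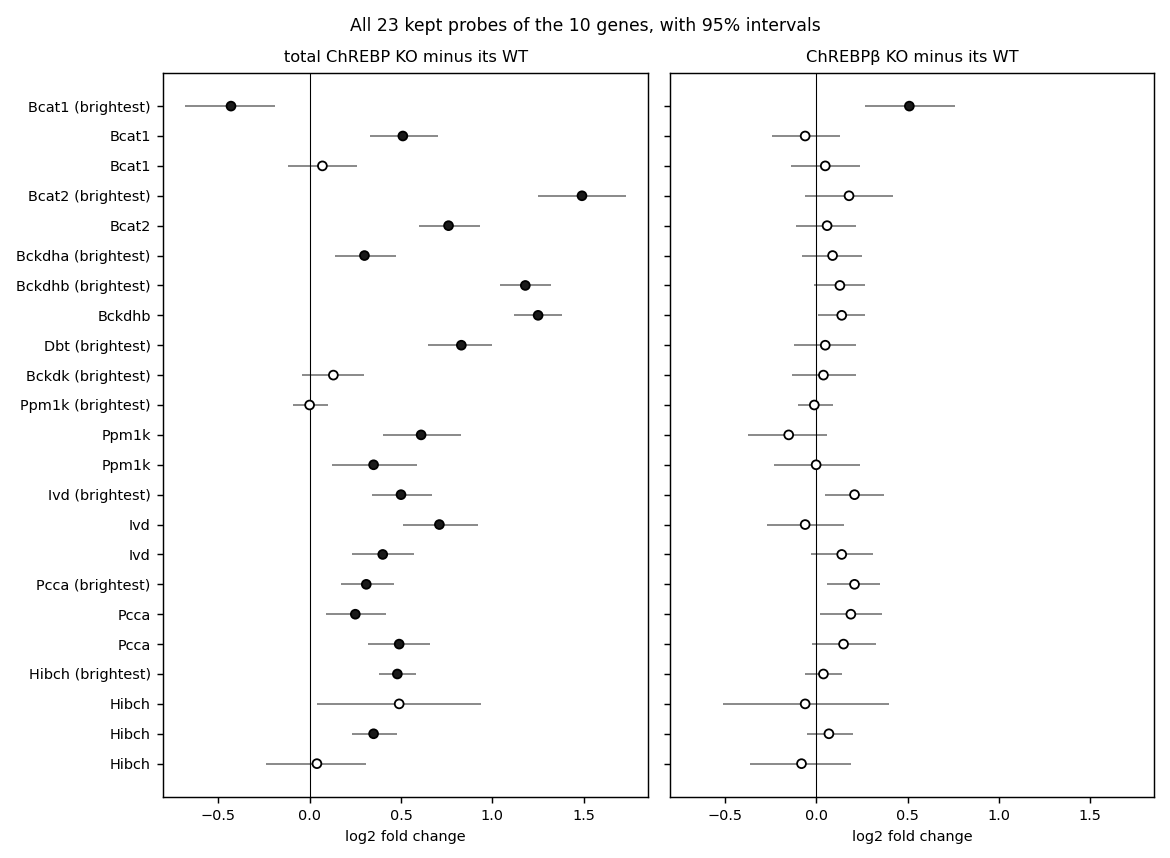
Log2 fold change of KO over WT (horizontal axis) for all 23 probes of the 10 genes, in the total and in the β line. Bars are 95% intervals, and filled points have an adjusted p under 0.05. The filled points number 18 in the total line and 1 in the β line.

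Counting genes whose groups did not overlap gave the same order of the lines. In the total line these were Bcat2, Bckdhb, Dbt and Hibch, 4 of 10, against 16.6% of all 24523 genes. None of the 10 did so in the β line, against 0.432% of all genes.

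The difference between the knockout effects was tested directly, as the ChREBPβ KO effect minus the total KO effect. It was called for 5 of the 10 genes, against 25.2% of all genes (12.2% higher and 13% lower), with a median of -0.25 for the 10 and -0.02 for all genes. The effect in ChREBPβ KO was lower by -1.31 ± 0.17 for Bcat2 (SE, limma adjusted p = 3.34e-07), by -1.05 ± 0.10 for Bckdhb (SE, limma adjusted p = 6.11e-10), by -0.78 ± 0.12 for Dbt (SE, limma adjusted p = 8.51e-06) and by -0.44 ± 0.07 for Hibch (SE, limma adjusted p = 1.71e-05). Bcat1 by its brightest probe had 0.95 ± 0.17 (SE, limma adjusted p = 0.000101), and its second probe had -0.57 (limma adjusted p = 0.00123). The Ppm1k probe A_51_P265219 had -0.77 ± 0.15 (SE, limma adjusted p = 0.000255), while the brightest Ppm1k probe had -0.01 (limma adjusted p = 0.94). For Ivd (-0.30, limma adjusted p = 0.0546), Bckdha (-0.21, limma adjusted p = 0.193), Pcca (-0.11, limma adjusted p = 0.499) and Bckdk (-0.09, interval -0.33 to 0.16, limma adjusted p = 0.659) a difference between the knockouts was not called. Other probes of Ivd and Pcca did pass, A_65_P11840 of Ivd with -0.78 (limma adjusted p = 0.000137) and A_66_P134918 of Pcca with -0.33 (limma adjusted p = 0.0385), and the Ivd difference was called in 8 of 19 other settings.

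The wild types of the lines themselves differed. Between β-line WT and total-line WT, 7 of the 10 genes were called, against 38.9% of all genes, 24.8% higher and 14.1% lower. Dbt (0.43, limma adjusted p = 0.000139), Bckdk (0.37, limma adjusted p = 0.000787) and Hibch (0.23, limma adjusted p = 0.00042) were higher in the β line, and Bcat1 (-0.81, limma adjusted p = 3.53e-06), Bcat2 (-0.47, limma adjusted p = 0.00176), Ivd (-0.22, limma adjusted p = 0.0253) and Pcca (-0.20, limma adjusted p = 0.0305) lower. Other probes of these genes bore this out only in part. Ivd A_66_P105102 (-0.40, limma adjusted p = 0.000298) and Pcca A_55_P2526970 (-0.32, limma adjusted p = 0.00234) were also lower. Not called were Bcat1 (-0.05 and -0.04), Bcat2 (-0.2), Ivd A_65_P11840 (0.09), Pcca A_66_P134918 (0.19) and Hibch (0.30, 0.00 and 0.31). With the median over probes, 3 of the 10 were called. The skeletal muscle markers differed between these wild-type groups, with means of 8.62 in the β line and 14.98 in the total line. With the muscle marker mean as a covariate, a setting chosen after the data were seen, 3 of the 10 were called, and calls over all probes fell from 39.2% to 13.7%. That mean did not overlap between the wild types (5.49 to 11.89 against 12.46 to 16.18), so the covariate largely stands for the line itself. The fall in calls can therefore not decide what part muscle had. Line, breeding and tissue sampling cannot be told apart here.

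The rest of the pathway was read from 25 further genes, all of them measured. In total KO, 17 were called higher and 1 lower, against 22.9% and 21.1% of all genes, with a median of 0.27 against 0.01. Transporters had the largest change in each direction. Slc7a8, which encodes the LAT2 neutral amino acid transporter of the plasma membrane, had lowest, median and highest values of 5.94, 6.3 and 6.74 in total WT and 8.56, 8.82 and 9.04 in total KO, far apart. The difference was 2.47 ± 0.11 (SE, limma adjusted p = 3.77e-18), a 5.53-fold increase. Its partner Slc3a2, the common heavy chain, rose by 0.39 (limma adjusted p = 0.00232), and Slc7a5, which encodes the related LAT1, had -0.01 (limma adjusted p = 0.926). Slc43a1, another neutral amino acid carrier, had 0.26 (limma adjusted p = 0.219).

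Slc25a44, the mitochondrial carrier that brings branched-chain amino acids into the matrix, was the one gene of the 25 called lower. Its values were 10.58, 10.68 and 10.84 in total WT and 9.49, 9.64 and 9.7 in total KO, again without overlap, with a difference of -1.07 ± 0.06 (SE, limma adjusted p = 5.06e-16). The difference was -1.16 to -0.99 within wash batches, and its second probe gave -0.28 (limma adjusted p = 0.00112). In ChREBPβ KO the brightest probe had -0.13 (limma adjusted p = 0.285).

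Klf15, a transcription factor known to drive genes of branched-chain amino acid breakdown, rose from 9.85, 10.2 and 10.9 in total WT to 11.2, 11.73 and 13.04 in total KO, by 1.5 ± 0.23 (SE, limma adjusted p = 2.45e-06). In ChREBPβ KO it had 0.28 (limma adjusted p = 0.678). Oxct1, which activates ketone bodies for oxidation, rose from 13.25, 13.47 and 13.69 to 14.53, 14.75 and 15.01 in total KO, by 1.31 ± 0.07 (SE, limma adjusted p = 2.32e-16).

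Along the leucine branch, Mccc2, a subunit of methylcrotonyl-CoA carboxylase, rose from 10.51, 10.84 and 10.9 to 11.45, 11.54 and 11.67, by 0.78 ± 0.06 (SE, limma adjusted p = 1.63e-12). Auh, the following hydratase, rose by 0.56 (limma adjusted p = 2.18e-08). The partner subunit Mccc1 had 0.17 (limma adjusted p = 0.0349), a call kept in 11 of 20 other settings and in 24 of 32 fits with 1 array left out.

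In the valine branch, Hibadh rose by 0.58 (limma adjusted p = 6.24e-10), Acad8 by 0.49 (limma adjusted p = 2.39e-11) and Aldh6a1 by 0.43 (limma adjusted p = 5.02e-06). These encode the hydroxyisobutyrate dehydrogenase, the isobutyryl-CoA dehydrogenase and the methylmalonate semialdehyde dehydrogenase. Acadsb, Hsd17b10 and Acat1, the dehydrogenases and the thiolase of the isoleucine branch, rose by 0.19, 0.27 and 0.25 (limma adjusted p = 0.0347, 0.0218 and 0.00177), calls kept in 15, 15 and 17 of 20 other settings. The hydratase Echs1, which serves several branches, rose by 0.35 (limma adjusted p = 0.000116).

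Past propionyl-CoA, the epimerase Mcee rose by 0.59 (limma adjusted p = 9.78e-05) and the mutase Mut by 0.51 (limma adjusted p = 6.47e-07). Of the genes that supply its cobalamin cofactor, Mmab had 0.20 (limma adjusted p = 0.0428), a call kept in 6 of 20 other settings and not made by its other probes (0.01 and 0.05, limma adjusted p = 0.953 and 0.714), while Mmaa had 0.09 (limma adjusted p = 0.166) and Mmadhc 0.06 (limma adjusted p = 0.316). Dld, the E3 subunit that the ketoacid dehydrogenase shares with other complexes, had 0.05 (limma adjusted p = 0.469).

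In ChREBPβ KO, 2 of the 25 were called, against 2.70% of all genes. Slc7a8 had 5.87, 6.24 and 6.71 in WT and 6.41, 6.6 and 7.07 in KO, a difference of 0.40 (limma adjusted p = 0.0453). Oxct1 had 13.23, 13.37 and 13.63 in WT and 13.46, 13.66 and 13.83 in KO, a difference of 0.26 (limma adjusted p = 0.0381). Both pairs of groups overlapped, and both calls lie near the threshold. Slc7a8 was called in 8 of 19 other settings and Oxct1 in 7 of 20. Tested against each other, the knockout effects differed for 13 of the 25, against 25.2% of all genes, with Slc7a8 at -2.07 (limma adjusted p = 8.24e-12), Oxct1 at -1.05 (limma adjusted p = 6.83e-10) and Slc25a44 at 0.94 (limma adjusted p = 2.13e-10).

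**Figure D4:**
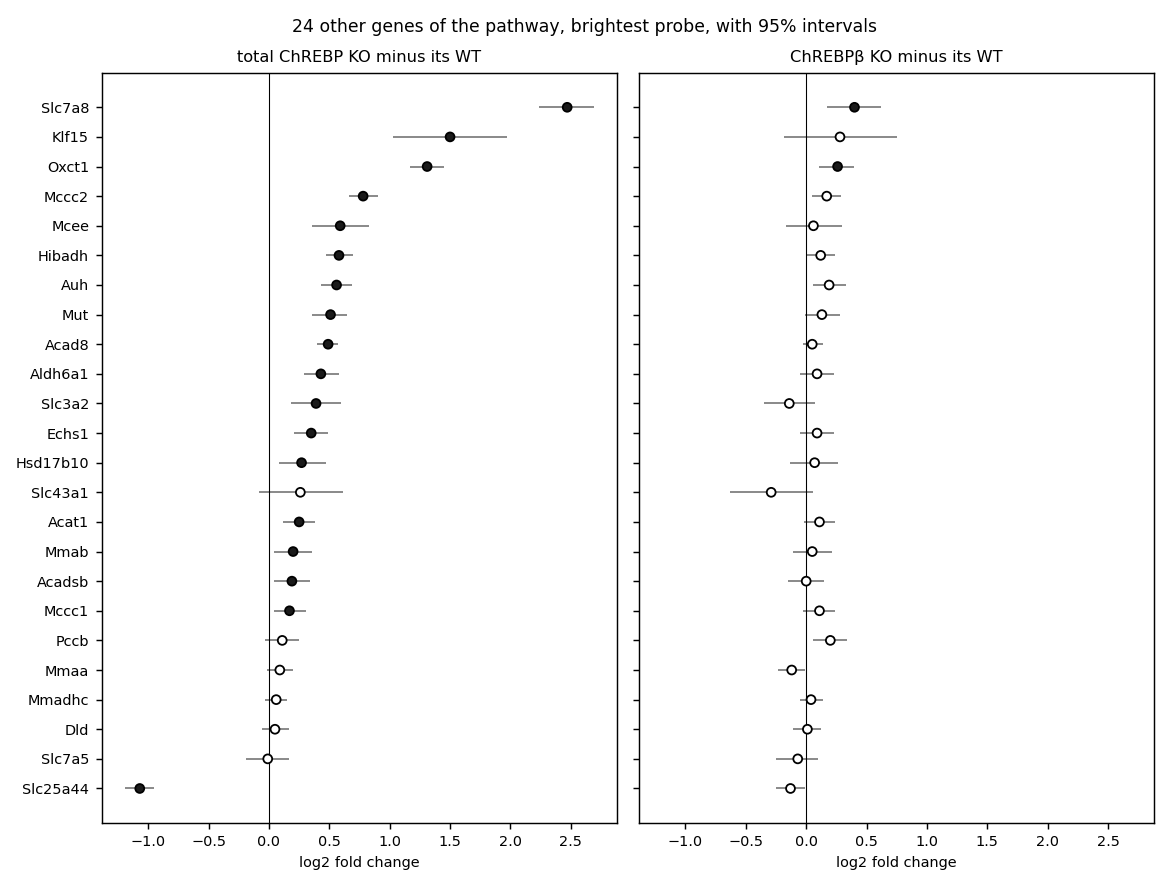
Log2 fold change of KO over WT (horizontal axis) for the brightest probe of 24 of the 25 further pathway genes, in the total and in the β line. Bars are 95% intervals, and filled points have an adjusted p under 0.05. Slc7a8 lies farthest to the right at 2.47 and Slc25a44 farthest to the left at -1.07 in the total line.

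The genes whose pattern over the 32 arrays was nearest were sought for the members with the largest changes, Bcat2 and Bckdhb. After each gene was centred on its own mean, the smallest root mean square difference from Bcat2 was that of Tst (0.25), followed by Hsd17b14 (0.30) and Ifi27l2a (0.30). From Bckdhb it was that of Pkd1l3 (0.17), Slc34a1 (0.19) and Ube2o (0.19), and Oxct1 of the pathway list followed at rank 6 with the same rounded distance (0.19). These are log2 distances and a description only.

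The 250 bases before each start site were searched for CACGTG, the E-box core, which reads the same on both strands, and for the ChREBP response element ChoRE on both strands, in RefSeq sequence of GRCm38.p6. Of the 10 genes, 9 were matched, with 13 start sites, and none held either motif, against 6.02% of all 32851 start sites with CACGTG and 0.0974% with ChoRE. This says only that these letters are not in these windows. Of the 25 further genes, 19 were matched with 21 start sites, and 3 of those sites held CACGTG, in Mccc2, Slc43a1 and Klf15. The stretch around each CACGTG is printed with the motif in capitals. Of these 3 genes, 2 were called higher in total KO, a share near that of the 25 (17 called higher).
Mccc2, chr13:100015640-100015660, minus strand: ggtctgcgatggCACGTGtgc
Slc43a1, chr2:84840247-84840276, plus strand: agggtctccctcCACGTGgcagccgtggga
Klf15, chr6:90462336-90462365, plus strand: ctcccgaggtccCACGTGgtctgcacttcg
Klf15, chr6:90462392-90462421, plus strand: tagaacccgtctCACGTGcgcatcggagga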

How the data were processed

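The authors deposited 1 scanner file per array with spot intensity values (Agilent Feature Extraction 10.10.1.1, per the submitters' processing notes) and a table of quantile-normalized log2 values. From the deposited median intensity, a spot was used if it was found, significant and above background on 26 or more of 32 arrays, or on 6 or more of a group. Values were then quantile normalized and put on the log2 scale, with replicated probes summarised by their median. This left 37306 probes, which held all 37304 of the deposited table, with a mean absolute difference of 0.00298. Between 64.4% and 71.1% of spots per array were well above background, and the number of arrays limits the precision. A limma 3.58.1 model (R 4.3.3) was fitted with 4 group means over 32 arrays, and each comparison was adjusted by Benjamini-Hochberg. The scripts were tested on simulated data. A gene was read by its brightest probe. The genes named are the 10 members, the 25 pathway genes, of which 1 is counted but not reported here, and the 3 nearest genes in pattern to the 2 members with the largest change. Members, lists and rules were chosen with earlier results of these data known. Nothing in the labels ties a replicate to a separate litter, so p-values measure the spread between these samples. Alternatives covered background, scaling, filter, probe choice, blocks for wash batch and slide (4 batches, 15 slides), covariates, array weights, and each array left out.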

Additional observations from a re-analysis of the deposited data

Results flagged for a closer look

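Chance marks about 1 in 20 groups as holding an array apart from the others, and 9 of 140 gene-by-group sets of 8 arrays did so here (Dixon's gap over range above its 95% critical value). In ChREBPβ KO replicate 4, Bckdha (14.94, others 15.34 to 15.57), Hibch (14.25, others 14.45 to 14.58), Hibadh (14.52, others 14.81 to 14.96), Aldh6a1 (14.24, others 14.53 to 14.75) and Auh (14, others 14.21 to 14.35) all lay below the other 7 arrays. Bcat1 stood high in ChREBPβ KO replicate 6 (7.03, others 6.33 to 6.66), and Bcat2 in β-line WT replicate 2 (11.04, others 10.45 to 10.68). Klf15 stood high in total KO replicate 7 (13.04, others 11.2 to 11.99) and in ChREBPβ KO replicate 2 (11.70, others 9.86 to 10.53).

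The limma test of the ChREBPβ KO effect minus the total KO effect passed for 18 genes of the pathway. Lower effects in ChREBPβ KO were those of Bcat2 (-1.31), Bckdhb (-1.05), Dbt (-0.78), Hibch (-0.44), Acad8 (-0.43), Hibadh (-0.46), Aldh6a1 (-0.35), Mccc2 (-0.62), Auh (-0.37), Oxct1 (-1.05), Mcee (-0.53), Mut (-0.37), Mmaa (-0.21), Slc7a8 (-2.07), Slc3a2 (-0.53) and Klf15 (-1.22). Bcat1 (0.95) and Slc25a44 (0.94) differed in the other direction. For Bcat1 this holds for the brightest probe only, since the others had -0.57 (limma adjusted p = 0.00123) and -0.01 (limma adjusted p = 0.955).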

How the results depend on the processing

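In total KO, 7 to 9 of the 10 genes and 13 to 19 of the 25 further genes were called over all alternatives, and the difference between the knockouts was called for 5 to 6 and 9 to 15. In ChREBPβ KO the 1 call among the 10 (Bcat1) went to 0 with slide as a block, with the median over probes, and in settings chosen after the data were seen, without wash batch 1, without wash batch 2 and without arrays of high liver marker mean (which left 4, 6, 2 and 3 arrays per group). The 2 calls of the 25 in ChREBPβ KO became 0 with the 75th percentile scaling of median intensity, no filter, slide block, muscle and liver covariates, the groups of the contrast alone, without wash batch 1, without high liver arrays and with the muscle covariate. They became 1 with Agilent's processed signal, the wash batch block, array weights, the median over probes, and without wash batch 2, 3 or 4. They were also 1 with the all-arrays filter, which gave no Slc7a8 value. With 1 array left out they ranged from 0 to 2. Between the wild types, 7 calls became 3 with muscle and liver covariates, 3 with the muscle covariate, 3 with the median over probes and 4 without high liver arrays. The 11 of the further genes became 6 with both covariates, 5 without high liver arrays and 7 with the muscle covariate. They were also 7 with the all-arrays filter, which gave no value for Acad8, Pccb, Slc3a2 and Slc43a1, all of them among the 11. With 1 array left out, calls among the 10 stayed at 8 in total KO and 1 in ChREBPβ KO, and were 5 to 6 for the difference and 5 to 7 between wild types.

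Directions turned mainly with the median over probes: in total KO, Ppm1k had 0.61 (limma adjusted p = 1.81e-05) and Bcat1 0.23 (limma adjusted p = 0.04), the Bcat1 difference between knockouts was -0.17 (limma adjusted p = 0.358), and between wild types Ivd had 0.09, Acadsb 0.34 and Slc3a2 0. Under it, Bckdk minus Ppm1k was -0.48 and Bcat2 minus Bcat1 0.90 in total KO, and 0.06 in ChREBPβ KO. The deposited table gave Ppm1k 0.08 (limma adjusted p = 0.0453). Between wild types without high liver arrays, Ivd had 0.01, Dld 0.01, Hsd17b10 0.06 and Pccb 0.13. The values of Ppm1k, Ivd, Acadsb and Slc3a2 under the median over probes equal those of single other probes. These are A_51_P265219, A_65_P11840, A_66_P140128 and A_55_P2893745. For the other turns the cause was not tested. Replicate numbers were not taken to pair the arrays: correlations of deviations were -0.304 to 0.0801 in the total line (0 of 8 over 0.1) and -0.196 to 0.532 in the β line (6 of 8 over 0.1, with 1 of 8 arrays most like its own number). With the replicate block, 8, 1, 6 and 7 of the 10 were called in total KO, ChREBPβ KO, the difference and the wild types. The groups of the contrast alone cannot give the difference between knockouts. The all-arrays filter gave no value for Bcat2, Acad8, Pccb, Slc3a2, Slc43a1 and Slc7a8, so counts under it leave these genes out.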
